A study of Mus musculus with 10 samples.

Results

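Immune cell preparations from mouse brain were compared by how much of their RNA was mitochondrial ribosomal RNA. The share of all counts on mt-Rnr1 and mt-Rnr2, the small and the large ribosomal RNA of the mitochondrion, was computed in each of the 10 libraries of the series. The libraries were chosen by this measured share: the 5 above 35% were compared with the 5 below 35%, and all 10 libraries entered the comparison. The mice were male C57BL/6 animals injected at 10 to 12 weeks of age with AAV1/2, an adeno-associated virus that carries genes into neurons, and RNA was isolated 16 weeks later at 26 to 28 weeks. The EV mice (n = 5) received the empty vector and the A53T mice (n = 5) the same vector carrying A53T haSyn, the human alpha-synuclein gene with the mutation of a familial form of Parkinson's disease. Brain immune cells were prepared from substantia nigra and striatum with collagenase digestion and Percoll, the labels name no cell sort, and 0.5 ng of RNA per mouse was made into a stranded total RNA library read with 75 nt single reads. The labels name no promoter for the vector.

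A Percoll preparation of digested brain is meant to keep microglia, the resident macrophages of the brain, and to leave behind myelin, neurons and astrocytes. Neurons and astrocytes have long processes filled with mitochondria, and synaptic endings pinched off during homogenisation carry mitochondria and messenger RNA with them. Oligodendrocytes and neurons both send some mRNAs out into their processes, and keep others around the nucleus. The 2 mitochondrial rRNAs are made from the mitochondrial genome, outside the nucleus, while all but a few of the genes described here are nuclear.

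The share that made the split is a description and was not tested. It was 50.9%, 46.1% and 36.3% in EV replicates 1, 2 and 3 and 47.7% and 43.9% in A53T replicates 2 and 5, which form the rRNA-high class (mean 45.0 ± 5.46%, SD, n = 5). It was 33.4% and 34.0% in EV replicates 4 and 5, 31.8% in A53T replicate 1, 15.1% in the library labelled A53T replicate 3 and 10.9% in A53T replicate 4, which form the rRNA-low class (25.1 ± 11.1%, n = 5). The values nearest to the threshold were 36.3% above it and 34.0% below it, those of EV replicates 3 and 5. Values of single libraries are given below in this order, the 5 rRNA-high libraries and then the 5 rRNA-low libraries.

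The libraries held 12386305 to 21780086 counts, of which 7887829 to 10881930 in the rRNA-high class and 11483850 to 13331293 in the rRNA-low class were left without the mitochondrial rRNAs. Levels are CPM, the counts of a gene scaled to the depth that was left, with trimmed mean of M-values (TMM) factors. Against its label, A53T replicate 3 held 10 transgene reads where the other 4 A53T libraries held 1217 to 2223 and the EV libraries 0 or 1. The vector covariate, the class-by-vector interaction and the values within each vector below rest on that label. EV replicate 3 had the fewest counts and the largest share of lncRNA counts (9.15%, against 4.61 to 5.06% in the other rRNA-high libraries), and A53T replicate 5 had reads on the most genes (26366, against 20368 to 21508). Transcripts of the salivary gland, a tissue outside the dissection, went with the class only in part, being low in A53T replicate 5. Amy1, salivary amylase, was at 74.7, 165, 225, 248 and 5.93 CPM in the rRNA-high libraries and at 9.41, 5.08, 42.6, 14.8 and 6.06 CPM in the rRNA-low libraries. Of 10 salivary genes looked for, 4 could be tested, all 4 had positive log2 fold changes (median 4.09) and 1, Amy1, passed the test. All 4 overlapped between the classes, and the call on Amy1 was lost in 6 of 10 fits with 1 library left out. Their part in the results below was not tested beyond the fit with Bpifa2 reads as a covariate, after which 0 genes were called higher and 1 lower. In that fit 4372 genes were at an unadjusted p under 0.05 in edgeR, against 5782 without the covariate.

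Each of 17319 genes was tested with edgeR's quasi-likelihood test with vector as a covariate and Benjamini-Hochberg adjustment. Because the classes were drawn from the counts, a p-value says how a gene went with the mitochondrial rRNA share, not how it answered a treatment, and in bulk RNA fewer cells of a type and less RNA per cell cannot be told apart. At an adjusted p under 0.05, 911 genes were higher in the rRNA-high libraries (5.26% of genes tested) and 1442 were lower (8.33%). The median log2 fold change (rRNA-high minus rRNA-low) of all genes was -0.01, that of the genes called higher 1.05 and that of the genes called lower -1.55. All rRNA-high libraries lay above all rRNA-low libraries for 6.78% of genes and below them for 9.25%. With library totals in place of TMM the median of all genes moved to -0.20 and the share of calls that were higher went from 38.7% to 11.6%. The interaction of class and vector gave 0 calls in edgeR (1055 genes at an unadjusted p under 0.05), 15 in DESeq2 and 0 in limma-voom, with 242 in edgeR when A53T replicate 1 was left out.

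The calls rest on few libraries. Without A53T replicate 5 the same test called 2 genes higher and 36 lower, without A53T replicate 2 it called 16 and 225, and without EV replicate 5 it called 79 and 441. Without EV replicate 1 the numbers were 152 higher and 783 lower, without A53T replicate 3 they were 118 and 669, and without A53T replicate 4 they were 328 and 900. Without EV replicate 2 they were 480 and 1274, without EV replicate 4 they were 513 and 1179, without EV replicate 3 they were 1887 and 2415, and without A53T replicate 1 they were 1616 and 1611. Within the EV libraries alone 5 genes were called higher and 1 lower, and within the A53T libraries alone 0 and 0. At an unadjusted p under 0.05 in edgeR there were 1990 genes within EV and 5911 within A53T, against 5782 over all 10 libraries. With so few libraries, 0 calls within A53T do not show that its classes were alike. The fold changes and the values of the single libraries therefore carry the account that follows.

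**Figure D1:**
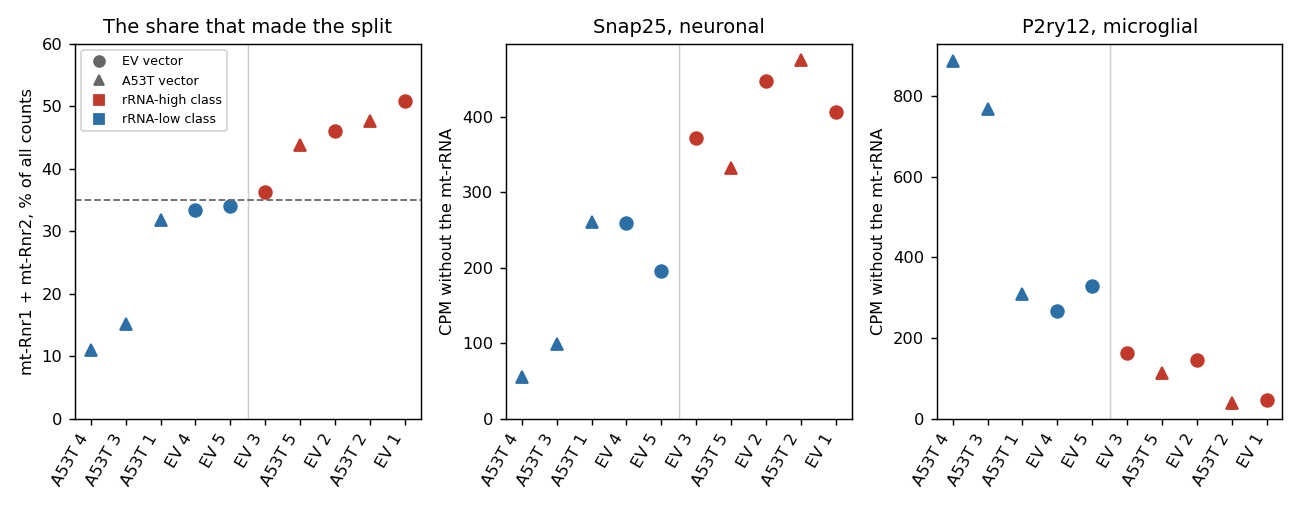
The share of counts on the 2 mitochondrial rRNAs (percent, left) and the levels of Snap25 and P2ry12 (CPM without those rRNAs) in each of the 10 libraries, ordered by the share; circles are EV and triangles A53T libraries, red the rRNA-high and blue the rRNA-low class, and the dashed line is the 35% threshold. Snap25 lies between 333 and 476 CPM in the red libraries and between 55.2 and 261 in the blue ones, and P2ry12 between 38.7 and 162 and between 266 and 887.

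Both named markers separated the classes. Snap25, a SNARE protein of neuronal exocytosis, was at 406, 447, 372, 476 and 333 CPM in the rRNA-high libraries and at 260.0, 195, 261, 98.8 and 55.2 CPM in the rRNA-low libraries. Every rRNA-high library was above every rRNA-low one, and the lowest values were those of A53T replicates 3 and 4, the libraries with the least mitochondrial rRNA. The log2 fold change was 1.20 ± 0.36 (SE; adjusted p = 0.0492 in edgeR's quasi-likelihood test). P2ry12, the purinergic receptor by which microglia sense ATP and ADP, was at 46.8, 146, 162, 38.7 and 112 CPM and at 266, 329.9, 308, 768 and 887 CPM. Here every rRNA-high library was below every rRNA-low one, with a log2 fold change of -2.23 ± 0.54 (adjusted p = 0.0270), or 4.68-fold. When each library was left out in turn, the call on Snap25 remained in 2 of 10 fits (those without EV replicate 3 or A53T replicate 1) and the call on P2ry12 in 5 of 10, being lost without EV replicates 1 or 5 or A53T replicates 2, 3 or 5; the log2 fold change stayed between 0.99 and 1.52 and between -2.55 and -1.77.

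The markers fit the names neuron-rich and microglia-rich only in part. Of the cell type lists described below, 4 of 15 neuronal and 8 of 14 astrocyte genes were called higher in the rRNA-high libraries. In the rRNA-low libraries 15 of 16 microglial genes were called higher, and so were 9 of 12 oligodendrocyte and 11 of 16 cell cycle genes.

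The sequences near the start of 3 called genes are shown because they hold motifs that were searched for, which most members of the same lists do not hold. PU.1, the myeloid lineage factor encoded by Spi1, is known to bind purine-rich sites, written here as GAGGAAGT; REST is a repressor of neuronal genes in other cells, and the left part of its element is written TTCAGCACC; the cyclic AMP response element is TGACGTCA. Each was searched on both strands of the 300 bases from 250 before to 50 after a start in RefSeq (GRCm38.p6), which 12366 tested genes had; the motifs share no overlap in the sequences shown, and capitals mark them. Cathepsin S (Ctss, chr3:95526536-95526835, plus strand) and complement component C1qc (chr4:136892865-136893164, minus strand) hold the PU.1 letters on the opposite strand, and synapsin I (Syn1, chrX:20920869-20921168, minus strand) holds the other motifs.
Ctss: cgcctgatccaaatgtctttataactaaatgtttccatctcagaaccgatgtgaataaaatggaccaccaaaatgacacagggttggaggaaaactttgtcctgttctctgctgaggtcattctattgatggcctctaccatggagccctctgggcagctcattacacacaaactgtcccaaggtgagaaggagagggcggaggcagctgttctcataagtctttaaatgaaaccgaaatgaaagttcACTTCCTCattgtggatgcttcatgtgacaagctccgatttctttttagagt
C1qc: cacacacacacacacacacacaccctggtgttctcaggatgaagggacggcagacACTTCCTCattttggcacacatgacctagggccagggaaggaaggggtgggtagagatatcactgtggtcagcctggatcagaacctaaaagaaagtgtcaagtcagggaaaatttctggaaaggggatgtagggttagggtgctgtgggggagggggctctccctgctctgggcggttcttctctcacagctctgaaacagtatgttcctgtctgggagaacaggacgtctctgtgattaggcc
Syn1: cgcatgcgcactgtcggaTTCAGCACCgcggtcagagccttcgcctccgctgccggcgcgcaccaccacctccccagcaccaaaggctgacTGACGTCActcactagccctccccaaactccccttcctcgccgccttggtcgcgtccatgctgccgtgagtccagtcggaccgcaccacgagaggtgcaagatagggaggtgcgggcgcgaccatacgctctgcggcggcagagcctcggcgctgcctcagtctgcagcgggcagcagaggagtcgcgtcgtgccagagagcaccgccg

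The PU.1 letters were found in 6.70% of the promoters of genes called lower in the rRNA-high libraries, in 2.25% of those called higher and in 3.51% of all tested genes with a promoter sequence. The REST letters were in 0.452%, 1.20% and 0.518% and the cyclic AMP letters in 3.44%, 3.75% and 3.36%. The PU.1 letters were in 2 of 10 pan-myeloid and 0 of 11 homeostatic microglial promoters, the REST letters in 1 of 9 neuronal promoters, and the cyclic AMP letters in 2 of 9 neuronal, 1 of 14 cell cycle and 2 of 18 stress gene promoters. These counts describe letters and were not tested. Ctss, a lysosomal protease of myeloid cells, was at 165, 420.4, 317, 182 and 398 CPM and at 829.8, 1271, 1188, 2270.5 and 3257 CPM, and C1qc at 36.8, 111, 77.5, 27.5 and 129 CPM and at 230.1, 249, 261, 530.0 and 731 CPM. Neither gene overlapped between the classes, and both were called lower (log2 fold changes -2.38 ± 0.43, adjusted p = 0.0150, and -2.18 ± 0.49, adjusted p = 0.0215, edgeR). Syn1, which tethers synaptic vesicles, was at 143, 198, 159, 191 and 155 CPM and at 115, 107, 83.9, 43.3 and 21.9 CPM, again without overlap (1.19 ± 0.34, adjusted p = 0.0418).

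Neuronal genes had mostly positive log2 fold changes of about 1, and a minority passed the test. Of 15 general neuronal genes, 13 had positive log2 fold changes and 4 passed the test (Snap25, Rbfox3, Syn1 and Uchl1; median 1.19, against -0.01 for all genes). Rbfox3, the splicing factor known as NeuN that sits in neuronal nuclei, was at 301, 232, 262, 303 and 244 CPM against 131, 104, 152, 40.4 and 28.0 CPM. The classes did not overlap (1.53 ± 0.40, adjusted p = 0.0333, edgeR). The 2 members with negative values were Tubb3 (-0.53 ± 0.27) and Stmn2 (-0.16 ± 0.20), a tubulin and a tubulin-binding protein that young neurons also make in quantity, and neither passed the test. All 12 genes of striatal projection neurons had positive values (median 1.16) and 1 passed, Drd1, the D1 dopamine receptor (1.12 ± 0.34, adjusted p = 0.0494), although its lowest rRNA-high value of 53.5 CPM was below the 58.1 CPM of EV replicate 4.

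The genes of the synapse had values of the same sign. All 16 genes of vesicles and release had positive log2 fold changes, 9 passed and the median was 1.19; the largest was that of Rims1, a scaffold of the active zone (1.71 ± 0.46, adjusted p = 0.0349). All 15 neuronal ion channels had positive values with 5 called (median 1.05), and all 13 glutamate and GABA receptor subunits with 4 called (median 1.11), among them Grin2a, an NMDA receptor subunit (1.33 ± 0.36, adjusted p = 0.0380). Shank1, a scaffold of the postsynaptic density whose mRNA is known to be carried into dendrites, was at 863, 982, 676, 628 and 634 CPM against 352, 349, 271, 160.2 and 44.7 CPM. The classes did not overlap (1.63 ± 0.39, adjusted p = 0.0254). Together with Camk2a, Arc, Map2, Ddn and Dlg4, it belongs to 6 mRNAs of dendrites chosen after the values were seen (median 1.55). Shank1 and Arc were the 2 that passed the test. All 6 were positive, which a choice made after seeing the values favours. Without EV replicate 1, EV replicate 5, A53T replicate 2, A53T replicate 3 or A53T replicate 5, 0 of the neuronal, vesicle, ion channel and receptor genes were called. Of the neuronal and vesicle genes, 10 and 13 were called without A53T replicate 1, without EV replicate 3, 6 and 11, without EV replicate 2, 1 and 2, and without EV replicate 4 or A53T replicate 4, 2 and 5. Of the ion channels and receptors, 12 and 11 were called without A53T replicate 1, 2 and 2 without EV replicate 2, 2 and 5 without EV replicate 4, and 3 and 2 without A53T replicate 4.

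Markers of other neurons were sparse or mixed. Th and Slc6a3, the enzyme and the transporter that mark dopaminergic neurons of the substantia nigra, reached 3.96 and 6.90 CPM at most, and 0 of 7 tested dopaminergic genes passed. All 8 tested genes of GABAergic interneurons were positive with 0 called (median 0.83), and of 6 tested glutamatergic forebrain genes all were positive with 1 called (median 1.75). Prkcd, a protein kinase C listed for thalamic neurons and also made by myeloid cells, went the other way, from 13.3 to 46.1 CPM in the rRNA-high libraries against 84.2 to 249.8 CPM (-2.09 ± 0.45, adjusted p = 0.0196).

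Astrocyte genes were on the neuronal side. All 14 were positive and 8 passed (median 0.93). Slc1a3, the glutamate transporter GLAST, was at 988, 908, 693, 1067 and 805 CPM against 605, 503, 514, 433 and 305 CPM, and the classes did not overlap (0.90 ± 0.23, adjusted p = 0.0309, edgeR). Slc1a2, the main astrocytic glutamate transporter, reached 16537 CPM in A53T replicate 2 and was at 1199.9 CPM in A53T replicate 4; its difference of 1.41 ± 0.47 did not pass (adjusted p = 0.0655). Aldh1l1, an enzyme of folate metabolism (1.15 ± 0.23, adjusted p = 0.0164), and Sox9, an astrocyte transcription factor (0.80 ± 0.22, adjusted p = 0.0399), were also higher without overlap. The number of astrocyte genes called was 0 without A53T replicates 2 or 5, 1 without EV replicate 1, EV replicate 5 or A53T replicate 3, 3 without A53T replicate 4, and 5 without EV replicates 2 or 4.

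**Figure D2:**
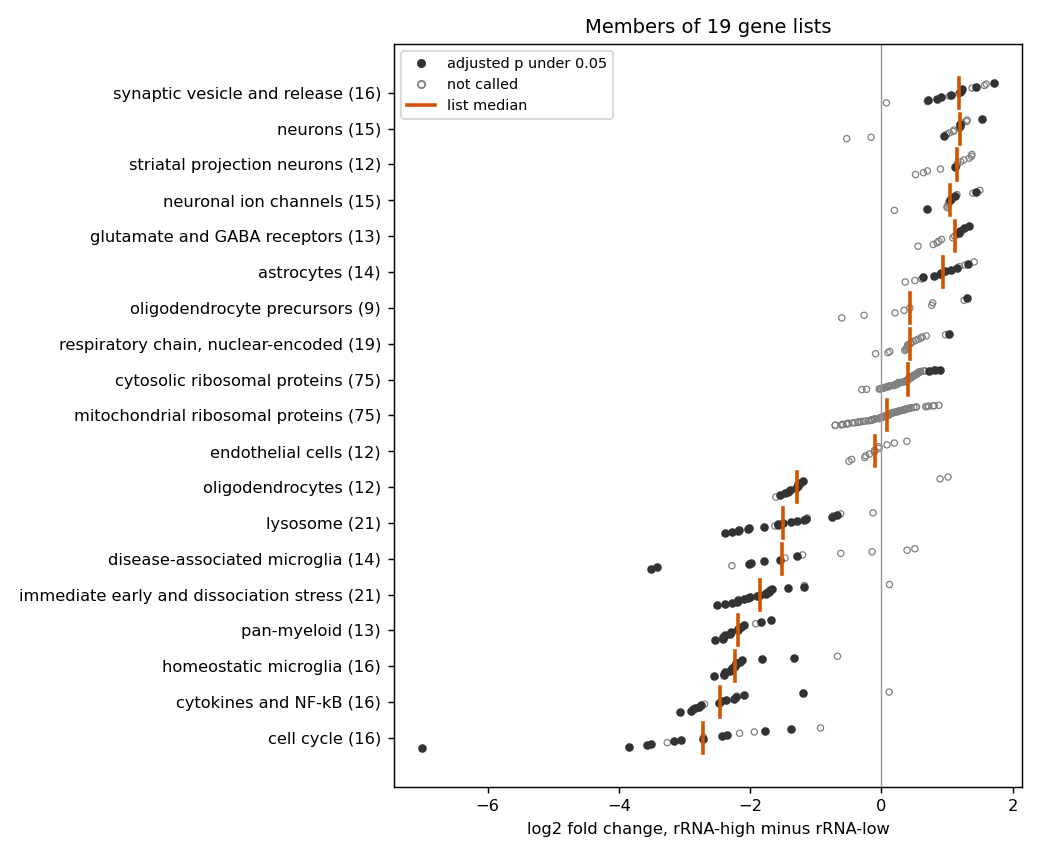
Log2 fold change (rRNA-high minus rRNA-low, horizontal axis) of each tested member of the gene lists (vertical axis, number of members tested in brackets); filled points passed an adjusted p under 0.05 and orange bars are list medians. Neuronal, synaptic and astrocyte lists lie to the right, with medians of 0.93 to 1.19, and myeloid, stress, cytokine and cell cycle lists to the left, with medians of -1.51 to -2.72; within the oligodendrocyte list, Mbp and Mobp lie apart on the right.

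Most microglial genes were lower in the rRNA-high libraries. All 16 homeostatic microglial genes were negative and 15 passed, with a median log2 fold change of -2.24. Cx3cr1, the receptor for the neuronal chemokine fractalkine, was at 107, 266, 204, 69.8 and 258 CPM against 509, 674, 572, 1441 and 1475 CPM. Tmem119, a membrane protein of brain-resident microglia, was at 16.8, 63.6, 21.4, 14.4 and 50.9 CPM against 98.5, 139.9, 145, 295 and 322 CPM. In both genes the classes did not overlap and the library labelled A53T replicate 3 and A53T replicate 4 stood highest (log2 fold changes -2.22 ± 0.47, adjusted p = 0.0187, and -2.38 ± 0.50, adjusted p = 0.0177, edgeR). The member that did not pass was Sparc, a matrix protein that endothelial cells make too (-0.67 ± 0.25). All 13 pan-myeloid genes were negative and 12 passed (median -2.19), among them Irf8, a transcription factor of the lineage (-2.14 ± 0.37, adjusted p = 0.0133).

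Other myeloid groups had smaller or less even differences. Of 14 tested genes of disease-associated microglia, 7 passed, all lower, and Apoe (0.51 ± 0.29), which astrocytes make in large amounts, and Axl (0.39) were positive. Of 13 complement and Fc receptor genes 11 were lower, with C3 (-0.15) and C4b (-0.25) close to 0 and not called. Of 13 MHC class I genes 7 were lower, of 13 genes of toll-like receptors and their partners 8, and of 21 lysosomal genes 16 (median -1.51), among them Lamp2, a lysosomal membrane protein (-1.18 ± 0.24, adjusted p = 0.0176). Of 16 interferon-stimulated genes 0 passed (median -0.85, which was 0.02 at a 30% threshold and -0.02 within EV), and of 11 MHC class II genes and their partners 1 passed, the costimulatory Cd86 (-2.02 ± 0.48); the median of the latter list was -0.71, and 0.61 within EV. Markers of blood-borne cells were mostly low: monocyte and neutrophil genes gave 0 calls of 5 tested, and only 1 of 10 T and NK cell genes had enough reads to test. Of 5 tested B and plasma cell genes 1 was called lower, the immunoglobulin gene Ighm (-1.54 ± 0.41, adjusted p = 0.0343, edgeR). Its mean was 22.0 against 74.5 CPM, and the call was lost without EV replicates 1 or 5 or A53T replicates 2, 3 or 5. Border-associated macrophages, which line the meninges and vessels, gave 1 call of 5 tested, Stab1 (-2.00 ± 0.41).

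Immediate early, dissociation stress and cytokine genes were also mostly lower in the rRNA-high libraries, and which cells made these transcripts was not tested. Of 21 immediate early and dissociation stress genes, 19 were lower (median -1.85). Fos was at 84.4, 233, 172, 76.9 and 180.5 CPM against 332, 511, 484, 785 and 1110.3 CPM, without overlap (-2.00 ± 0.42, adjusted p = 0.0186, edgeR). Egr3, an immediate early gene, was the exception in sign (0.12 ± 0.19). Of 16 cytokine and NF-kB genes 13 were lower (median -2.46). Il1a, interleukin 1 alpha, was at 27.6, 82.2, 52.0, 26.5 and 84.6 CPM against 192, 317, 282, 655 and 666 CPM, which is 6.73-fold (-2.75 ± 0.45, adjusted p = 0.0133). Tnf, which codes for tumour necrosis factor, was at 3.14 to 22.0 CPM against 47.4 to 208 CPM (-2.79 ± 0.52, adjusted p = 0.0153). These levels are CPM over all RNA of a library, not per microglial cell.

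The calls on these groups rested most on A53T replicate 5, without which 0 of the homeostatic, pan-myeloid, stress, cytokine and lysosomal genes were called. Without A53T replicate 2, 1 homeostatic, 5 pan-myeloid, 4 stress, 6 cytokine and 3 lysosomal genes were called, and without EV replicate 5, 4, 8, 9, 7 and 6. With any other library left out, 12 to 15 homeostatic and 10 to 13 pan-myeloid genes were called. Complement and Fc receptor, disease-associated, toll-like receptor and MHC class I genes also gave 0 calls without A53T replicate 5. They gave 4, 1, 2 and 0 without A53T replicate 2, 5, 2, 4 and 0 without EV replicate 5, 7, 4, 4 and 1 without A53T replicate 3, and 7, 5, 4 and 1 without EV replicate 1. MHC class I genes gave 2 calls without A53T replicate 4 and 3 without EV replicate 2. Stab1 and Cd86 were the single calls of their lists, and both lists gave 0 without A53T replicates 2 or 5, the list of Cd86 also without EV replicate 5 or A53T replicate 3. The medians moved less: -2.52 to -1.83 for the homeostatic and -2.49 to -1.83 for the pan-myeloid genes over the 10 fits. Within the EV libraries the 2 medians were -1.59 and -1.66, and within the A53T libraries -2.83 and -2.87.

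Oligodendrocyte genes fell into opposite directions. Of 12 members, 10 were negative and 9 passed (median -1.29). Mag, an adhesion protein of the inner myelin layer, was at 111, 81.8, 93.1, 75.7 and 118 CPM in the rRNA-high libraries and at 307, 146, 231, 416 and 291 CPM in the rRNA-low libraries. The classes did not overlap (-1.47 ± 0.27, adjusted p = 0.0148, edgeR). Mog, a protein of the outer myelin surface, was at 19.5, 16.2, 36.6, 13.9 and 34.1 CPM against 83.0, 40.2, 51.7, 105 and 81.2 CPM, also without overlap (-1.54 ± 0.35, adjusted p = 0.0223). Trf, the iron carrier transferrin, which oligodendrocytes make in the brain and which was chosen after its values were seen, was 3.38-fold lower (-1.76 ± 0.28, adjusted p = 0.0128).

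Mbp and Mobp did the reverse. Mbp, myelin basic protein, whose mRNA is carried along the oligodendrocyte processes and translated at the myelin sheath, was at 4100.1, 3359.8, 3089, 4718 and 4026 CPM against 2134, 3013, 2726, 1690.1 and 781 CPM. Mobp, another basic myelin protein with a transported mRNA, was at 2844, 2462, 3053, 3389 and 3047 CPM against 1594, 2337, 1935, 1020.3 and 398 CPM. All rRNA-high libraries were above all rRNA-low libraries for both genes, with A53T replicate 4 lowest, and neither passed the test (0.89 ± 0.35, adjusted p = 0.0996, and 1.01 ± 0.39, adjusted p = 0.0955, edgeR). Bcas1, a myelin-associated protein of the same chosen set as Trf, had the same order (751 ± 105 CPM, SD, n = 5, against 326 ± 189; 1.20 ± 0.42, adjusted p = 0.0733). It was the only one of 19 further myelin genes with a positive value, and 11 of these 19 were called lower. With DESeq2, which called 2129 genes higher against 911 in edgeR, Mbp, Mobp and Bcas1 were called higher (adjusted p = 0.0318, 0.0332 and 0.0232). In the edgeR fits with 1 library left out, Mbp and Mobp were called in 0 of 10 and Bcas1 in 1 of 10. The number of oligodendrocyte genes called lower was 0 without A53T replicates 2 or 5 and 6 without EV replicate 4.

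**Figure D3:**
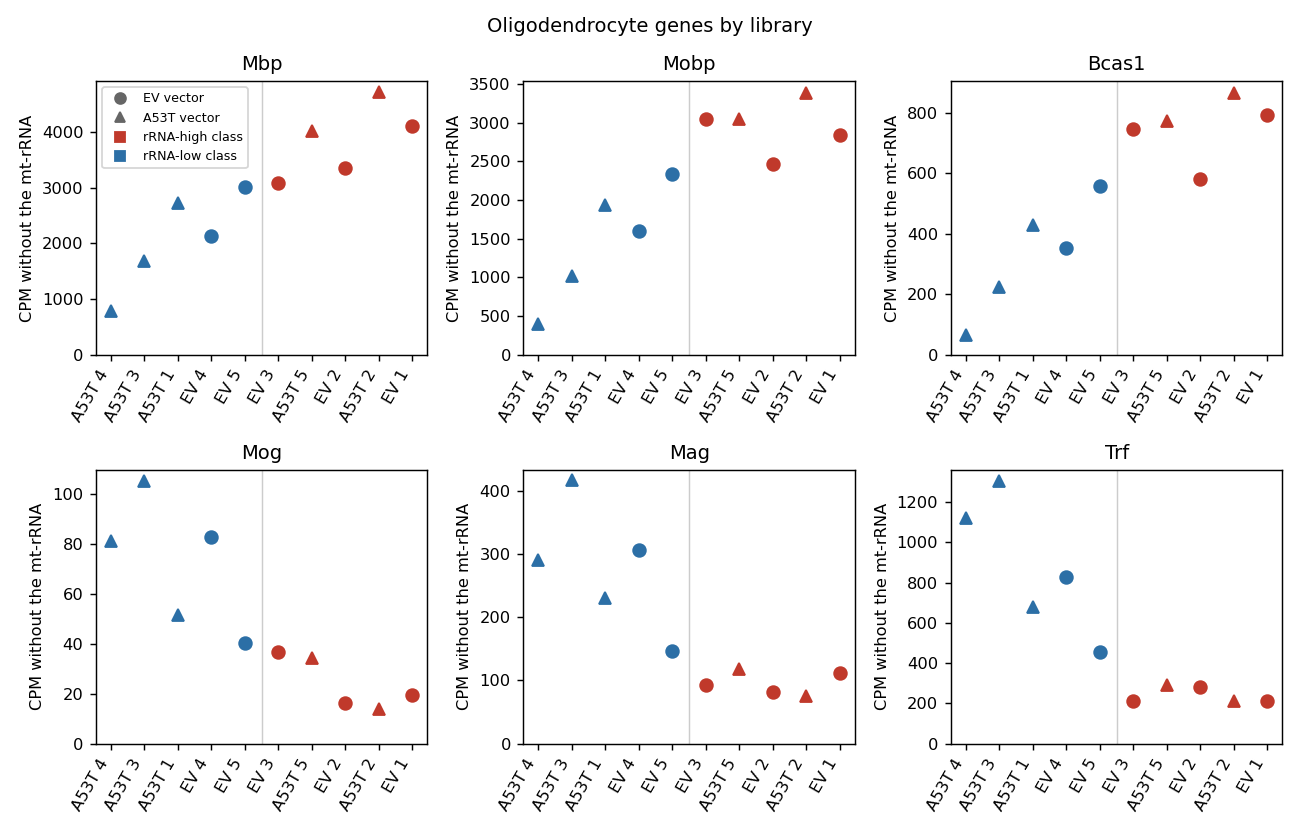
Levels (CPM without the mitochondrial rRNAs, vertical axes) of 6 oligodendrocyte genes in the 10 libraries, ordered by mitochondrial rRNA share; circles are EV and triangles A53T libraries, red the rRNA-high and blue the rRNA-low class. Mbp, Mobp and Bcas1 in the upper row are above the rRNA-low libraries in every red library, and Mog, Mag and Trf in the lower row are below them, with Mag between 75.7 and 118 CPM in the red libraries.

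Oligodendrocyte precursors and vessel cells did not follow either side clearly. Of 9 precursor genes 7 were positive and 1 passed (median 0.43), Cacng4, a subunit that accompanies AMPA receptors and is found in other neural cells (1.30 ± 0.39, adjusted p = 0.0475), a call lost in 7 of the 10 fits with 1 library left out. Pdgfra, the growth factor receptor that defines precursors, was at 0.77 ± 0.31, and Cspg4, the NG2 proteoglycan, at -0.26 ± 0.23, neither past the test. Of 12 endothelial genes 0 passed (median -0.11), and of 10 tested genes of pericytes, smooth muscle and fibroblasts 0 passed (median -0.20, and 0.22 within EV). The endothelial median changed sign without A53T replicates 4 or 5 (0.02 and 0.12) and was 0.35 within the EV libraries. Ttr, the transthyretin of the choroid plexus, ranged from 0 to 11.9 CPM in the rRNA-high libraries and from 0.162 to 582 CPM in the rRNA-low libraries and did not pass the test (adjusted p = 0.0735).

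The 12 lower genes of smallest p had adjusted p-values of 0.00337 to 0.00935. Among them were Lmnb1, which encodes lamin B1, and Tmpo, which encodes a lamin-binding protein of the inner nuclear membrane; Foxm1 and Tpx2, a transcription factor and a spindle protein of dividing cells; Myc; the linker histones H1f2 and H1f3; and Dlx2 and the antisense RNA Dlx6os1 of forebrain progenitors. Lmnb1 was at 16.4, 18.7, 17.6, 11.9 and 24.6 CPM against 103, 134, 72.4, 105 and 81.8 CPM, which is 5.64-fold (-2.50 ± 0.23, adjusted p = 0.00337, edgeR). Foxm1 was at 0.649, 2.59, 1.73, 2.42 and 2.33 CPM against 20.0, 22.7, 12.0, 17.2 and 22.8 CPM (-3.27 ± 0.39, adjusted p = 0.00935). In both genes the classes did not overlap, but genes picked by smallest p for this split tend to show such a gap. The remaining 3 of the 12 were Dpysl3, a cytoskeletal protein of growing axons (-1.85 ± 0.22), Arsg, a lysosomal sulfatase (-1.74 ± 0.21), and Daglb, which makes the endocannabinoid 2-arachidonoylglycerol in macrophages (-1.88 ± 0.24). All 12 stayed called when any 1 library was left out, but they were chosen by smallest p in these same libraries. With Bpifa2 reads as a covariate only 1 gene in all was called lower, and within the A53T libraries alone 0 were. Those fits had 4372 and 5911 genes at an unadjusted p under 0.05 in edgeR.

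Cell cycle genes were the list with the lowest median. All 16 were negative and 11 passed (median -2.72). Top2a, the topoisomerase of replicating chromosomes, was at 5.08, 13.2, 38.7, 0.211 and 5.06 CPM against 81.2, 151, 50.2, 87.0 and 74.9 CPM, without overlap (-3.58 ± 0.75, adjusted p = 0.0181, edgeR). Mki67, the proliferation antigen Ki-67, was at 10.6, 30.3, 54.5, 0 and 15.1 CPM against 159, 277, 85.8, 206 and 153 CPM (-3.51 ± 0.83, adjusted p = 0.0249). EV replicate 3, the library just above the threshold, had the highest value of its class in both genes. Of 55 tested clustered histone genes, 53 were negative and 24 were called lower, and of 10 nuclear lamina genes all were negative and 3 were called; both groups were chosen after the values were seen, and histone genes are near-identical copies that share reads. The histone calls were 5 without A53T replicate 5, 8 without EV replicate 5, 9 without A53T replicate 2, 14 without A53T replicate 3 and 15 without EV replicate 1. Without A53T replicate 5, 2 of the cell cycle genes were called, without EV replicate 5, 4, and without A53T replicate 2, 7.

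Genes of the neurogenic lineage of the subventricular zone, the germinal layer beside the striatum, were also lower in the rRNA-high libraries, in a list chosen after the values were seen. Of 18 members 16 were negative and 12 were called (median -1.45). The 2 positive members were Dlx6 (0.74) and Tubb2b (0.10), neither called. Dlx5 (-0.76) and Sp9 (-0.28) were negative and also not called. Dlx2, a homeobox factor of GABAergic progenitors, was at 1.73, 3.93, 4.21, 0.738 and 3.89 CPM against 30.1, 46.9, 13.6, 23.5 and 26.8 CPM (-3.37 ± 0.44, adjusted p = 0.00935, edgeR). Sox4, a transcription factor of newborn neurons, was at 26.9, 57.7, 52.8, 26.0 and 37.9 CPM against 127, 199, 102, 170.1 and 168 CPM (-2.01 ± 0.27, adjusted p = 0.00935). Dcx, doublecortin, the microtubule protein of migrating neuroblasts, was at 2.05, 17.9, 29.0, 12.8 and 18.2 CPM against 99.2, 133, 61.8, 77.9 and 49.1 CPM (-2.43 ± 0.50, adjusted p = 0.0174). All 3 genes were highest in EV replicate 5, and the classes did not overlap. Dlx6os1 lies antisense to the Dlx5 and Dlx6 genes, and whether the counting used strand is not stated in the labels. The number of members called was 4 without A53T replicate 5 and 6 without EV replicate 5 or A53T replicate 2.

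**Figure D4:**
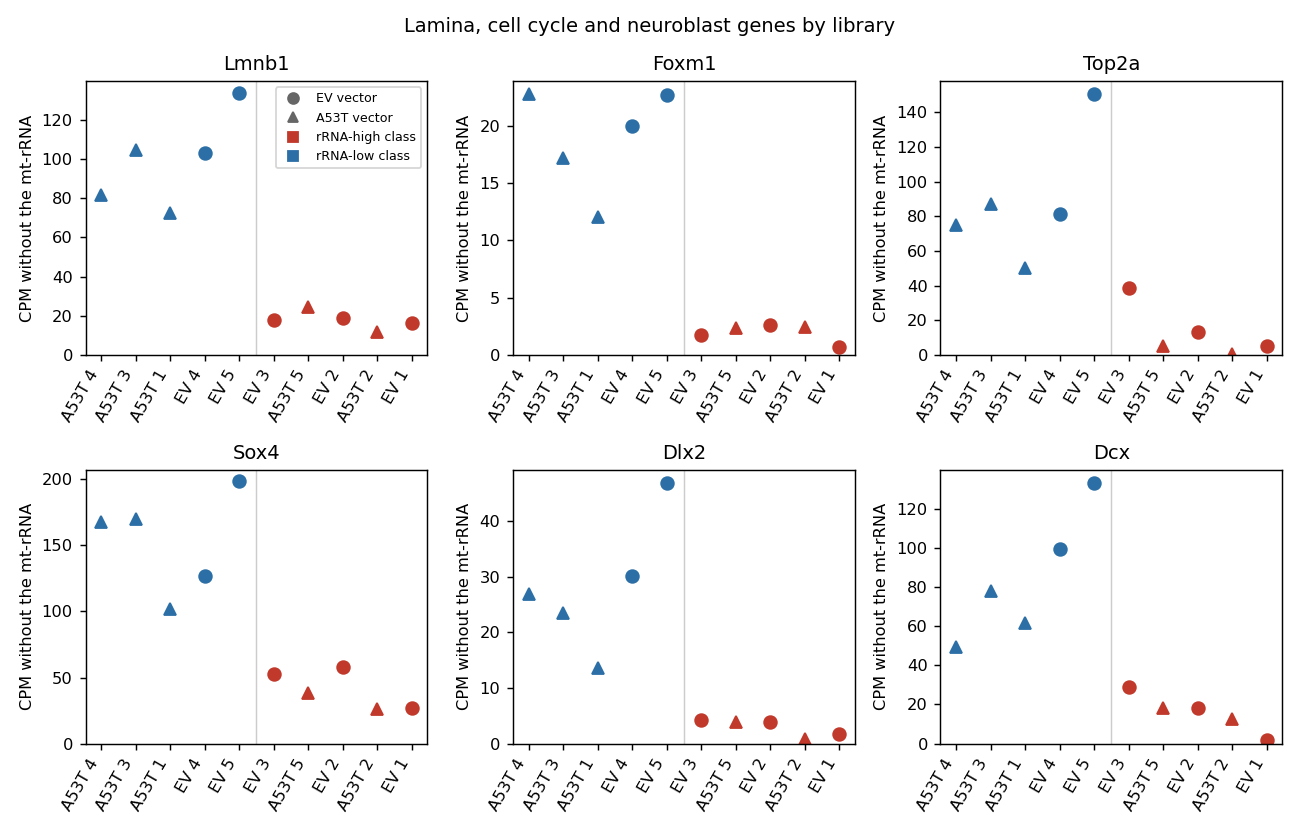
Levels (CPM without the mitochondrial rRNAs, vertical axes) of lamin, cell cycle and neuroblast genes in the 10 libraries, ordered by mitochondrial rRNA share; circles are EV and triangles A53T libraries, red the rRNA-high and blue the rRNA-low class. All 6 genes are lower in every red library, and Lmnb1 lies between 11.9 and 24.6 CPM in the red and between 72.4 and 134 CPM in the blue libraries.

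The order of the libraries within the rRNA-low class differed between these groups. The mean log2 CPM of the homeostatic microglial genes was highest in A53T replicates 4 and 3 (9.36 and 9.17), against 7.71 to 8.15 in the other rRNA-low libraries. The mean of the neuronal genes was lowest in the same libraries (5.36 and 5.98, against 7.26 to 7.42). The mean of the oligodendrocyte genes was highest in the library labelled A53T replicate 3 (8.63). The means of the cell cycle and the neurogenic genes were highest in EV replicate 5 (4.25 and 5.70), the library just below the threshold. When the threshold was moved to 30%, which leaves only A53T replicates 3 and 4 on the low side, the median of the neuronal genes became 2.21 and that of the cell cycle genes -1.81, while the median of all genes moved to -0.11. When A53T replicates 3 and 4 were left out together, the medians were 0.69 for the neuronal, -1.70 for the homeostatic microglial and -2.52 for the cell cycle genes.

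**Figure D5:**
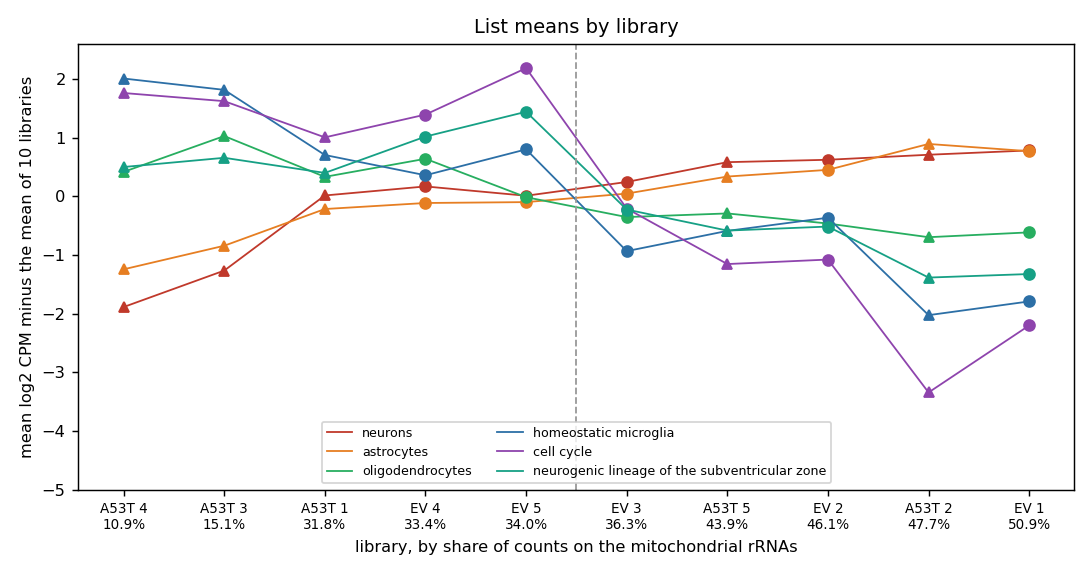
Mean log2 CPM of 6 gene lists in each library, minus the mean over the 10 libraries (vertical axis), with the libraries ordered by their share of mitochondrial rRNA (horizontal axis); circles are EV and triangles A53T libraries, and the dashed line is the threshold. Neuronal and astrocyte means are lowest and microglial means highest in A53T replicates 3 and 4, while cell cycle and neurogenic means peak in EV replicate 5.

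The 12 higher genes of smallest p had adjusted p-values of 0.0128 to 0.0150. Nptxr, the receptor of the neuronal pentraxins (1.45 ± 0.25, adjusted p = 0.0133, edgeR), and Npcd, which overlaps it on the genome so that their reads may be shared (1.48 ± 0.26), were higher. Nkain4, a partner of the sodium pump, was at 17.5 to 24.1 CPM against 5.91 to 9.24 CPM (1.40 ± 0.23, adjusted p = 0.0128). Pygm, the glycogen phosphorylase of muscle and astrocytes (1.10 ± 0.19), Wwtr1, the Hippo pathway factor TAZ (1.07 ± 0.18), and Rlbp1, a retinoid carrier of glia (1.62 ± 0.29), had no overlap between the classes. Bcl2, which blocks apoptosis (0.89 ± 0.16), and Fabp3, a fatty acid carrier (1.83 ± 0.33), were higher too, as were Nim1k, Etl4 and Fam81a. All 12 lost their call without A53T replicate 5 and were called in 8 or 9 of the 10 fits with 1 library left out.

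Few nuclear genes of mitochondria passed the test, where 5.26% of all genes tested were called higher and 8.33% lower. The numbers of respiratory chain and cytosolic ribosomal protein genes called higher were near the share over all genes. Of 19 respiratory chain genes 18 were positive and 1 passed, Cox4i1, a subunit of cytochrome c oxidase (1.02 ± 0.28, adjusted p = 0.0386), with a median of 0.44. Of 75 mitochondrial ribosomal protein genes 45 were positive, 30 negative and 0 called (median 0.09, which turned to -0.10 with library totals only and to -0.03 at a 30% threshold). Of 21 tested genes of mitochondrial transcription and rRNA maturation 0 passed (median -0.18). Of 75 cytosolic ribosomal protein genes 70 were positive and 3 passed (median 0.40). Without EV replicate 3, 12 respiratory chain and 42 cytosolic ribosomal protein genes were called, and without A53T replicate 1, 3 and 4. Leaving out any other library gave 0 respiratory chain and 0 or 1 cytosolic ribosomal protein calls. The other mitochondrial rows of the table were 22 tRNAs, of which 16 could be tested. All 16 were positive and 6 were called higher (median 1.47), so 905 of the 911 genes called higher were not mitochondrial tRNAs. With 1 library left out, the call held in 6 of 10 fits for TrnW. It held in 4 for TrnD, TrnM and TrnV and in 2 for TrnK and TrnL1. TrnW was at 84.4, 79.5, 56.8, 112 and 83.5 CPM against 33.7, 39.4, 42.9, 12.3 and 12.7 CPM, without overlap. TrnF, TrnV and TrnL1 border the rRNA genes on the same transcript, so their direction is not independent of the share that made the split. The mRNAs of the mitochondrial genome were not analysed here.

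Small nuclear and nuclear-retained RNAs had values of both signs. Rn7sk, the 7SK RNA that holds back transcription elongation, was at 1281, 1626, 1073, 1123 and 1539 CPM against 2429, 2456, 1971, 2914 and 3392 CPM (-0.97 ± 0.25, adjusted p = 0.0336, edgeR). Rmrp (-1.25 ± 0.31) and Rpph1 (-0.94 ± 0.28), the RNAs of 2 nuclear ribonucleases, were lower too, and Rny3, a Y RNA of the cytosol, was higher (1.74 ± 0.52). The snRNA share of counts was 0.105 to 0.171% in the rRNA-high and 0.220 to 0.392% in the rRNA-low libraries. Of 11 long non-coding RNAs known to stay in the nucleus, Malat1 was at -0.10 ± 0.38, Miat was called lower (-0.98 ± 0.26) and Rmst higher (1.10 ± 0.33), and Meg3, a neuronal one, was at 1.19 ± 0.36 (adjusted p = 0.0503). Without EV replicate 5, A53T replicate 2, A53T replicate 3 or A53T replicate 5 none of Rn7sk, Rmrp and Rpph1 was called.

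The called genes also differed in length. Protein-coding genes called higher spanned a median of 51.2 kb on the genome, those called lower 23.2 kb and all tested ones 25.3 kb. Genes over 100 kb made up 34.0%, 11.2% and 15.7%. Protein-coding genes were 91.8% of those called higher and 91.1% of those called lower. These are descriptions of the sets and were not tested.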

How the data were processed

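RNA from brain immune cells of 10 mice was sequenced. Per the submitters' processing notes, reads were trimmed with cutadapt 2.5, aligned with STAR 2.7.2b to mm10 (GRCm38.p6) and counted with featureCounts 1.6.4; DESeq2 1.24.0 is also named. Neither the labels nor the notes name a strand setting. The deposited table holds raw counts per gene (45906 rows); the deposited rlog table, on a log2 scale, was not used. The table held 0 per-sample columns that no sample label claimed.

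Libraries were split at 35% of counts on mt-Rnr1 and mt-Rnr2, and both rows were then removed. Genes were kept with edgeR's filterByExpr, scaled by TMM and tested with edgeR 4.0.16 (glmQLFit and glmQLFTest, R 4.3.3) on class and vector over all 10 libraries, with Benjamini-Hochberg adjustment over 17319 genes. DESeq2 1.42.0 and limma 3.58.1 (voom with sample weights), other scalings, filters and thresholds, each vector alone, and each library left out were tried as alternatives. The split itself, the gene lists and the named genes were chosen with earlier results of these data known. Named were Snap25 and P2ry12, the 12 genes of smallest p in each direction among those called with a mean log2 CPM of at least 3 (predicted loci skipped), the first 3 tested members of each list, and list members called against their list's median; other genes named were chosen after their values were seen, and some genes that the rule names are not reported here. In simulated data with the class split, 20%, 68%, 86% and 100% of genes changed 2-, 4-, 8- and 16-fold were recovered, and 7 of 144 calls were false. Each fold was given to 50 genes. Whether these rates hold for the 10 libraries, with 911 genes called higher and 1442 lower, was not tested. The mice are separate samples per the labels, and whether the same replicate number in EV and A53T pairs them could not be told from the counts. A count of 0 allows up to 3 counts, for counting error only. Promoter sequences are RefSeq's (GRCm38.p6).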

Additional observations from a re-analysis of the deposited data

Results flagged for a closer look

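Of 146 groups of 5 values examined, 8 had a library far from the other 4 of its class, where chance alone flags about 5% of groups. EV replicate 3 had 7887829 counts without the mitochondrial rRNAs (nearest rRNA-high library 10510140) and 9.15% of them on lncRNAs (nearest 5.06%). A53T replicate 5 had reads on 26366 genes (nearest 21508). Among the genes, Dlx6os1 was at 39.2 CPM in EV replicate 3 (nearest 23.8), Daglb at 32.0 CPM in A53T replicate 5 (nearest 22.1) and Rlbp1 at 20.0 CPM in A53T replicate 2 (nearest 13.1), all within the rRNA-high class. In the rRNA-low class, the salivary genes Amy1 and Bpifa2 were at 42.6 and 38.7 CPM in A53T replicate 1 (nearest 14.8 and 2.67). With EV replicate 3 and A53T replicate 5 both left out, an alternative chosen after seeing the data, 286 genes were called higher and 893 lower.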

How the results depend on the processing

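The counts of genes called higher and lower (911 and 1442) were 2129 and 2342 with DESeq2, 2456 and 2540 with limma-voom, and 3159 and 3037 with the mitochondrial rRNA percent as a continuous term. At a 30% threshold they were 1619 and 458. The count higher was 257 with library totals only, 1962 without a filter on low counts, 1519 without the vector covariate and 1896 at a 40% threshold. Within EV it was 5 higher and 1 lower, within A53T 0 and 0, with Bpifa2 reads as a covariate 0 and 1, and at an adjusted p under 0.01 0 and 18. The EV, A53T and Bpifa2 fits had 1990, 5911 and 4372 genes at an unadjusted p under 0.05 in edgeR, against 5782 in the main fit. With 1 library left out the counts ranged from 2 to 1887 higher and from 36 to 2415 lower. The following were chosen after seeing the data: without A53T replicates 3 and 4 the counts were 222 and 505, and without EV replicate 3 and A53T replicate 5 they were 286 and 893. The difference of the split between vectors gave 15 calls with DESeq2 and 0 to 242 with 1 library left out. With the replicate number as a block, 0 genes were called higher and 0 lower (2417 at an unadjusted p under 0.05). The correlations of same-numbered libraries were -0.108, 0.244, -0.0326, 0.313 and -0.374. They were positive where both libraries were of the same class (replicates 2 and 4) and negative where the classes differed. They therefore cannot tell whether the numbers pair the libraries. Of calls that were higher, the share was 38.7% with TMM, 11.6% with library totals only, 47.6% with DESeq2 and 49.2% with limma-voom. Among the list medians that moved were those of mitochondrial ribosomal proteins with library totals only (-0.10); of neurons (2.21), striatal projection neurons (2.58), oligodendrocyte precursors (0.96), endothelial cells (-0.74), vesicle genes (2.02), ion channels (2.17), receptors (2.14), interferon-stimulated genes (0.02) and cell cycle genes (-1.81) at 30%; and of endothelial cells at 40% (-0.66). Within EV the median of MHC class II genes was 0.61; the medians of the stress and lysosomal genes were -1.20 and -0.88 there and within A53T -2.61 and -2.13; without A53T replicates 3 and 4 the lysosomal median was -0.97. The cause was not tested. All 142 named genes past the test kept their sign in 29 alternatives. These genes were taken because they passed in the same libraries, which the alternatives reuse, so their kept sign is no separate support. The alternative at an adjusted p under 0.01 is the main fit with a stricter threshold and cannot change a sign. Of the 142, 15 were called whichever single library was left out, and 12 of these were the lower genes of smallest p.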

Other observations

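Cholesterol synthesis, which astrocytes and oligodendrocytes carry out in the brain, had 2 of 15 genes called higher in the rRNA-high libraries, with a median log2 fold change of 0.14 that turned to -0.06 with library totals only. Of 11 heat shock and chaperone genes all were negative and 4 were called lower (median -0.61), and of 11 tested genes of cell death and the p53 response all were negative and 4 were called lower (median -1.05). Without A53T replicate 5 these lists gave 0, 0 and 1 calls, without EV replicate 5 they gave 0, 1 and 2, and without A53T replicate 2 they gave 0, 0 and 2. Without EV replicate 1, A53T replicate 3 or A53T replicate 4 they gave 0, 3 and 2. Of 5 red blood cell genes 0 passed, and their summed level was 72.7 to 261 CPM in the rRNA-high and 58.7 to 251 CPM in the rRNA-low libraries, so the classes overlapped. Haemoglobin genes are near-identical copies that share reads.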
